A study of Mus musculus with 24 samples.

Results

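The hypoxia and glycolysis genes described here are 33 listed mouse genes that sense oxygen, carry glucose through glycolysis to lactate, or are known targets of the hypoxia-inducible factors. Of these, 29 had at least 1 probe set that names them alone, out of 17097 genes with such a probe set, and each gene was read from its probe set of highest mean across the 24 arrays. Gpi1, Eno1 and P4ha1 had no probe set naming them in the annotation used here, and Pgam1 had only 1 that also names another gene, so these 4 members have no value. All 29 measured members lay above the level below which genes were set aside as dim, 6.27 on the log2 scale. The arrays measured mouse RNA of stromal cells, called the neural fraction by the submitters, from orthotopic xenografts in NSG mice. The tumour line was SCC25, which comes from a human squamous carcinoma of the mouth. These mice are immunodeficient and lack mature lymphocytes but keep myeloid cells. The tumour cells carried shEGR2_40.9 or shEGR2_38.9, both against the transcription factor EGR2, shGAL against the neuropeptide galanin, or PLKO, a hairpin without a target. Each hairpin was combined with a diet rich in palmitic acid (PA-rich) or a control diet, which gave 8 groups of 3 arrays. The hairpins acted in human cells and the arrays read mouse RNA, so that these data hold no check of the silencing. In the series' wording the 3 arrays of each group are technical replicates, whether from separate animals is not stated, and a p-value here reflects only how far such arrays differ, which may be technical. All levels are log2 values and all changes are differences of log2 values, and the number of arrays limits their precision.

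Cells meet low oxygen mainly through the hypoxia-inducible factors. With oxygen present, the prolyl hydroxylases made from Egln1 and Egln3 mark the alpha subunits, HIF-1alpha from Hif1a and HIF-2alpha from Epas1, for destruction by way of the VHL protein. When oxygen is short the factors persist and switch on glucose transporters, glycolytic enzymes, lactate export, mitochondrial adaptation and, as a feedback, Egln3 itself. Schwann cells, the glia of peripheral nerve, are known to run glycolysis and to supply lactate to axons.

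Hypoxia-inducible factors bind a short core motif, written ACGTG or GCGTG. Both versions were searched on both strands in the RefSeq promoter windows of GRCm38.p6, which run from 250 bases before to 50 after each start and are 300 bases long. CACGTG, a run that reads the same on both strands, counts on each. A match was present in 43.8% of all 32851 windows, and 46.7% of 27025 genes had one in any of their windows. Among the measured members, 24 of the 25 with a window had one (96%). Because the list includes known targets of these factors, that percentage is not a result of these arrays. The share was 10 of 10 among members that were higher on the PA-rich diet with shEGR2_38.9, 2 of 2 among those lower and 12 of 13 among those without a call. A match describes letters in this window and shows no binding. The 4 promoters below belong to the members with the largest changes in that diet comparison, Egln3, Aldoc, Bnip3 and Pfkfb3, and are shown 5′ to 3′ in gene direction with the matches in capitals. The windows lie at chr12:54203825-54204124 on the minus strand for Egln3, chr11:78322823-78323122 on the plus strand for Aldoc, chr7:138909457-138909756 on the minus strand for Bnip3 and chr2:11553880-11554179 on the minus strand for Pfkfb3. For Aldoc and Pfkfb3 the table holds 2 windows, and the first is shown. The matches number 1 for Egln3, 3 for Aldoc, 5 for Bnip3 and 1 for Pfkfb3, whose other window holds 4.
Egln3: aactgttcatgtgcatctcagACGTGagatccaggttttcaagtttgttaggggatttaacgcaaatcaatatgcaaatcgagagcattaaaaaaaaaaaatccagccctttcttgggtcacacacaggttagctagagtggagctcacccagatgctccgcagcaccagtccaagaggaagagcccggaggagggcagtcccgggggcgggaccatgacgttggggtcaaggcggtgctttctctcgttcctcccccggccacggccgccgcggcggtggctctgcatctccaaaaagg
Aldoc: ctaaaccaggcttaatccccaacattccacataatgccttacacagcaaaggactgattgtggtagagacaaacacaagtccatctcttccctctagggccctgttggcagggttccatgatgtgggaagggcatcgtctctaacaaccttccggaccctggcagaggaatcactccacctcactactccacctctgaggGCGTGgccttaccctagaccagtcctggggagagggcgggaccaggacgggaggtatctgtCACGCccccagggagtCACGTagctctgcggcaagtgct
Bnip3: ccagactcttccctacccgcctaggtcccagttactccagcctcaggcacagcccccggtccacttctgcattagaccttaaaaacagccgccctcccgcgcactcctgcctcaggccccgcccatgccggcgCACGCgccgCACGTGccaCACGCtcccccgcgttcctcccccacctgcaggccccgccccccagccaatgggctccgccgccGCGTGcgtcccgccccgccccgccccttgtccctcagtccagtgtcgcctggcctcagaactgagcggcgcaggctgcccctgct
Pfkfb3: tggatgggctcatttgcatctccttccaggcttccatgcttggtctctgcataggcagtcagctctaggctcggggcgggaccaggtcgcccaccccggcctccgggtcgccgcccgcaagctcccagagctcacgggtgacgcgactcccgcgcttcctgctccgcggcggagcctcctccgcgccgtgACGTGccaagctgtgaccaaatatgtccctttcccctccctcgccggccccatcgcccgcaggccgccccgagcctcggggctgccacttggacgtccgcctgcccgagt

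One array stood apart and bears on the results with shEGR2_38.9. The shEGR2_38.9 control-diet array 3 (replicate 3) had a mean of 7.09, against 7.15 to 7.17 in the other 23 arrays, and its Gapdh control probe sets for the 3′ end exceeded those for the 5′ end by 0.76, against -0.12 to 0.08. For the actin control probe sets the same difference was -0.44, against -0.26 to -0.06, so it lay outside the range in the other direction. This array held the lowest of the 24 values for 12 of the 29 members, among them Egln3, Egln1, Hif1a, Hk2, Aldoa, Ldha, Bnip3, Higd1a and P4ha2. The next array in this count held the lowest value for 3 members. The array apart also held the highest of the 24 values for 2 members. Within its own group it was the lowest for 17 members and the highest for 9. The share of all genes for which it was lowest was not counted, so these counts describe the array and not the members. Member counts that rest on this array are given with and without it, and so are many of the member changes. Wherever a call is said to end without certain arrays, each was left out on its own. Calls that also ended under other processing are named with the results or in the section on processing.

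The labelled cell type was checked against markers. The Schwann cell genes Sox10 (mean 7.50), Erbb3 (11.02), Ngfr (8.26) and Mbp (7.56) lay above the dim level, and S100b (5.84) lay below it. Among neuronal genes, Tubb3 (9.33) and Prph (7.07) lay above it, whereas Snap25 (4.55), Elavl4 (5.11), Syt1 (5.82) and Uchl1 (6.11) lay below it. The keratinocyte genes Krt14 (13.18) and Krt5 (12.91) were far above the dim level, and Krt1 (6.85) was nearer to it. The 8 endothelial markers all lay above it, from Cldn5 (7.22) to Cdh5 (10.41). Other cell types were also seen. Hba-a1 (13.28) of erythrocytes was far above the dim level. The 5 pericyte and smooth muscle markers ran from Cnn1 (6.52) to Acta2 (10.89). Of 6 fibroblast markers 3 were dim, and Dcn (11.64) was the highest. The 8 endothelial markers averaged 9.48 to 9.75 over the arrays of shEGR2_40.9 and 9.53 to 10.06 over those of shEGR2_38.9 on the control diet, against 7.65 to 8.46 over all arrays of the other 6 groups. The 6 macrophage markers averaged 6.88 to 7.04 and 7.05 to 7.16 in the same arrays, against 6.45 to 6.65 elsewhere. The 7 keratinocyte markers averaged 9.53 to 10.07 with shEGR2_38.9 on the control diet, against 9.98 to 10.60 over all other arrays. The part of these cell types in the results below was not tested beyond what is given there. In bulk samples, fewer cells of a type and less RNA per cell cannot be told apart.

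Across the 8 groups the members varied unequally. Hk1 and Pkm, an early and a late enzyme of glycolysis, had the smallest range of group means, 0.15 each. Pfkfb3 had the largest, 1.25, followed by Egln3 with 1.21 and Ddit4 with 1.14. In 11 comparisons of diet and hairpin, 20 members passed an adjusted p of 0.05 at least once, with 35 calls up and 14 down. Pfkfb3 was called in 6 of the 11, Egln1 in 5, and Egln3, Pfkfb4, Bnip3 and Higd1a in 4 each. Slc2a1, Slc2a3, Hk1, Pfkp, Pgk1, Pkm, Car9, Bnip3l and Kdm3a were called in none. The comparisons share arrays, so the counts are not independent.

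**Figure D1:**
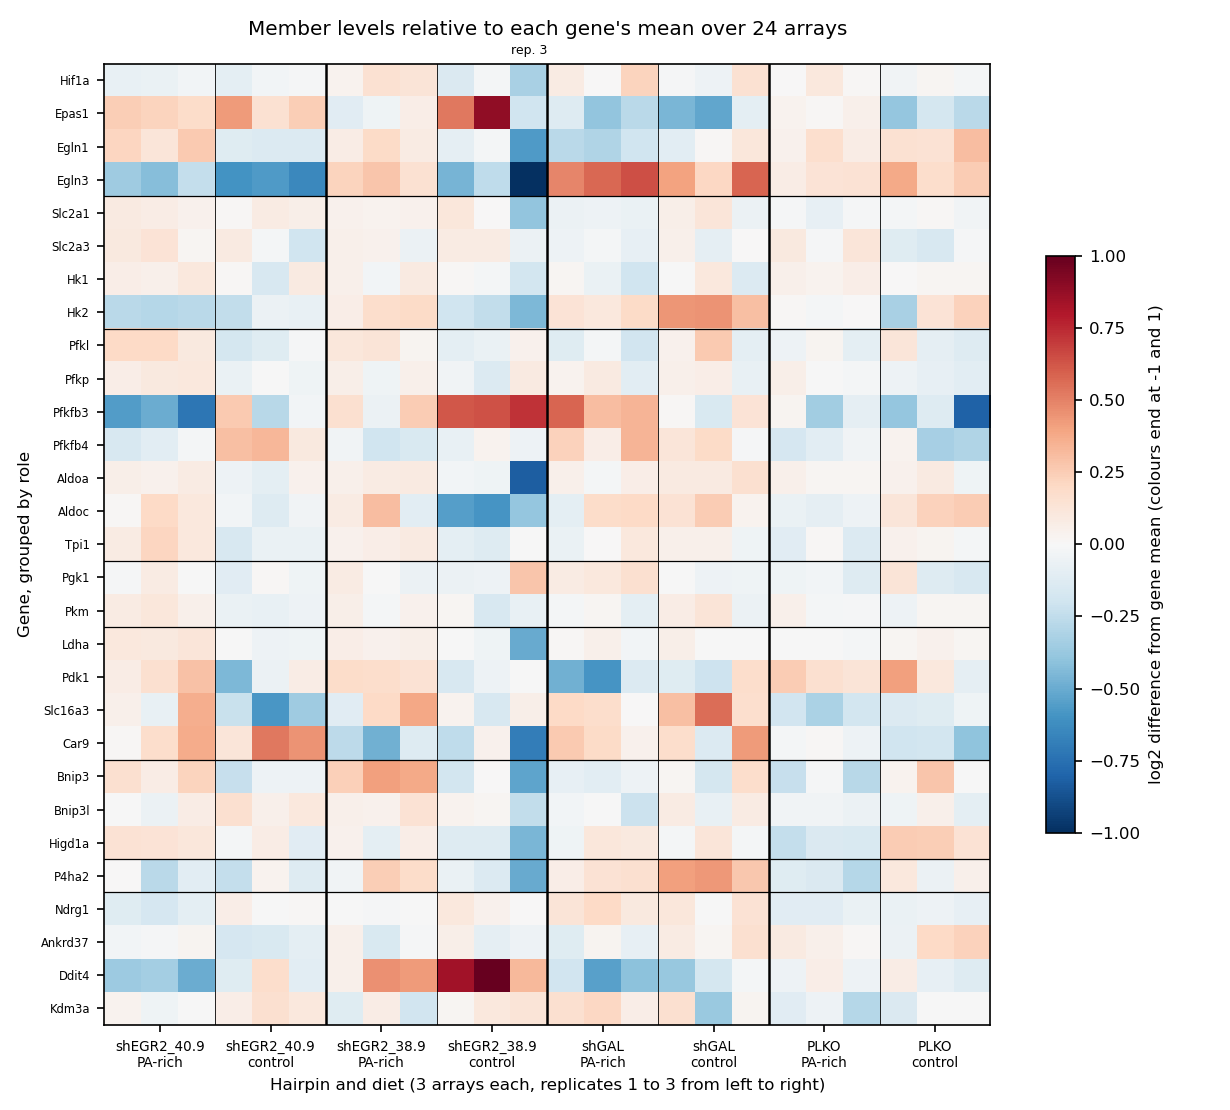
Log2 level of the 29 measured members (rows, grouped by role) in the 24 arrays (columns, 3 per group of hairpin and diet), as the difference from each gene's mean over all arrays. Red is above and blue below that mean, colours end at -1 and 1, and control-diet replicate 3 of shEGR2_38.9, marked above its column, holds the lowest value of 12 members.

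With all arrays in the fit, more members passed the diet test with shEGR2_38.9 than with any other hairpin. On the PA-rich diet 10 members were higher and 2 lower, 12 of 29, against 22.1% of all 11844 genes tested (13.8% up and 8.3% down). The members had a median change of 0.13, against 0.07 over all genes. The genes that rose were Hif1a and both prolyl hydroxylases, Hk2, Aldoa, Aldoc and Ldha of glycolysis, the mitochondrial genes Bnip3 and Higd1a, and P4ha2. Pfkfb3 and Ddit4 fell. Without control-diet replicate 3 the count was 7, with 4 up and 3 down, against 19.1% of all genes (10.4% up and 8.71% down). It was then lower than the count with shEGR2_40.9, which was 10 without the same array, against 13% of all genes. These counts are not on equal terms, because shEGR2_38.9 then had 2 control-diet arrays and shEGR2_40.9 had 3. Of the 12 calls, 6 then held: Egln3, Hk2, Aldoc and Bnip3 up, Pfkfb3 and Ddit4 down. Epas1 was added as a fall. Without PA-rich replicate 2 the count was 6.

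Among the oxygen sensors, Egln3 with shEGR2_38.9 had 10.79, 10.84 and 10.72 on the PA-rich diet, against 10.10, 10.31 and 9.38 on the control diet. The 3 PA-rich arrays lay close together and above every control array, of which replicate 3 was the lowest. The gene rose by 0.86 (SE 0.14, adjusted p = 0.000124), and by 0.58 (adjusted p = 8.93e-05) without that replicate. Egln1 had 10.43, 10.55 and 10.44 on the PA-rich diet, against 10.27, 10.34 and 9.79 on the control diet. The groups did not overlap, and the same-number pairs, each scanned in 1 batch, differed by 0.16, 0.20 and 0.65. The change was 0.34 (SE 0.10, adjusted p = 0.0178), or 0.16 without control replicate 3, and the call ended without shEGR2_38.9 control-diet replicate 3 (adjusted p = 0.126) or shEGR2_38.9 PA-rich-diet replicate 2 (adjusted p = 0.0771). Hif1a, the HIF-1alpha gene, had 11.98, 12.10 and 12.08 on the PA-rich diet, against 11.80, 11.93 and 11.62 on the control diet. Control replicate 3 was again the lowest, and the change of 0.27 (SE 0.08, adjusted p = 0.0121), or 0.19 without it, lost its call without shEGR2_38.9 control-diet replicate 3 (adjusted p = 0.069) or shEGR2_38.9 PA-rich-diet replicate 2 (adjusted p = 0.0534). Epas1, which is known for its high expression in endothelial cells, had 10.25, 10.32 and 10.43 on the PA-rich diet, against 10.89, 11.25 and 10.17 on the control diet. Control replicates 1 and 2 lay above all PA-rich arrays and replicate 3 below them, and the change of -0.44 (SE 0.16, adjusted p = 0.0597) became -0.74 (adjusted p = 8.93e-05) without replicate 3. In the same comparison 7 of the 8 endothelial markers fell (median -1.60) and 3 of 4 macrophage markers fell (median -0.62), and their part in these values was not tested.

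In glycolysis with the same hairpin, Hk2, which phosphorylates glucose on entry, had 11.36, 11.47 and 11.49 on the PA-rich diet, against 11.10, 11.05 and 10.85 on the control diet. The groups did not overlap, and the gene rose by 0.44 (SE 0.10, adjusted p = 0.0029), or by 0.36 (adjusted p = 0.0195) without control replicate 3. Aldoc, the brain-type aldolase, had 7.00, 7.23 and 6.81 on the PA-rich diet, against 6.37, 6.33 and 6.53 on the control diet. All control arrays were low here and replicate 3 was the highest of them, so the rise of 0.60 (SE 0.10, adjusted p = 6.97e-05) was 0.66 (adjusted p = 7.48e-05) without it. Aldoa, the main aldolase of muscle, had 12.36, 12.39 and 12.40 on the PA-rich diet, against 12.28, 12.27 and 11.49 on the control diet. Control replicate 3 was far below the other 5 arrays, and the change was 0.37 (SE 0.12, adjusted p = 0.0355) with it and 0.11 without it. The call ended without shEGR2_38.9 control-diet replicate 3 (adjusted p = 0.208) or shEGR2_38.9 PA-rich-diet replicates 1 (adjusted p = 0.0713), 2 (adjusted p = 0.0847) or 3 (adjusted p = 0.0923). Another Aldoa probe set had the opposite sign. Ldha, which turns pyruvate into lactate, had 12.71, 12.68 and 12.70 on the PA-rich diet, against 12.64, 12.60 and 12.14 on the control diet. Here too replicate 3 alone was far below the rest. The change of 0.24 (SE 0.08, adjusted p = 0.0492) was 0.08 (adjusted p = 0.316) without it, and the call ended without any 1 of 22 arrays, all except control replicates 1 and 2 of the same hairpin.

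Pfkfb3 makes the allosteric activator of phosphofructokinase, and its change had the opposite sign. With shEGR2_38.9 it had 9.38, 9.16 and 9.47 on the PA-rich diet, against 9.84, 9.86 and 9.94 on the control diet. All 3 control arrays were high and close together, and no PA-rich array reached them. Pfkfb3 fell by 0.54 (SE 0.15, adjusted p = 0.00877), with -0.51 (adjusted p = 0.0335) without control replicate 3, and the call ended without shEGR2_38.9 PA-rich-diet replicate 2 (adjusted p = 0.0569). Ddit4, an inhibitor of mTOR signalling, had 8.19, 8.60 and 8.57 on the PA-rich diet, against 8.98, 9.19 and 8.47 on the control diet. The groups overlapped through control replicate 3, and the change of -0.43 (SE 0.14, adjusted p = 0.0351) became -0.63 (adjusted p = 0.00127) without it. This call ended without shEGR2_38.9 control-diet replicates 1 (adjusted p = 0.0885) or 2 (adjusted p = 0.182) or shEGR2_38.9 PA-rich-diet replicate 1 (adjusted p = 0.194).

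Of the mitochondrial members with shEGR2_38.9, Bnip3, a receptor for the removal of mitochondria, had 10.26, 10.43 and 10.40 on the PA-rich diet, against 9.84, 10.03 and 9.50 on the control diet. The groups did not overlap with or without control replicate 3, and the rise was 0.57 (SE 0.11, adjusted p = 0.000665) with it and 0.43 (adjusted p = 0.00562) without it. Higd1a, an inner membrane protein that binds respiratory complexes, had 10.87, 10.73 and 10.89 on the PA-rich diet, against 10.70, 10.70 and 10.37 on the control diet. The lowest PA-rich array lay barely above control replicates 1 and 2, and the change was 0.24 (SE 0.08, adjusted p = 0.0381), or 0.13 without control replicate 3. The call ended without shEGR2_38.9 control-diet replicate 3 (adjusted p = 0.23) or shEGR2_38.9 PA-rich-diet replicates 1 (adjusted p = 0.112) or 3 (adjusted p = 0.134). P4ha2, a collagen prolyl hydroxylase, had 8.39, 8.67 and 8.61 on the PA-rich diet, against 8.36, 8.29 and 7.92 on the control diet. Every PA-rich array was above every control array, replicate 3 of the control diet was the lowest, and the pairs differed by 0.03, 0.38 and 0.69. The change was 0.37 (SE 0.10, adjusted p = 0.0123), or 0.23 without control replicate 3, and the call ended without shEGR2_38.9 control-diet replicate 3 (adjusted p = 0.0941) or shEGR2_38.9 PA-rich-diet replicates 2 (adjusted p = 0.07) or 3 (adjusted p = 0.054).

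**Figure D2:**
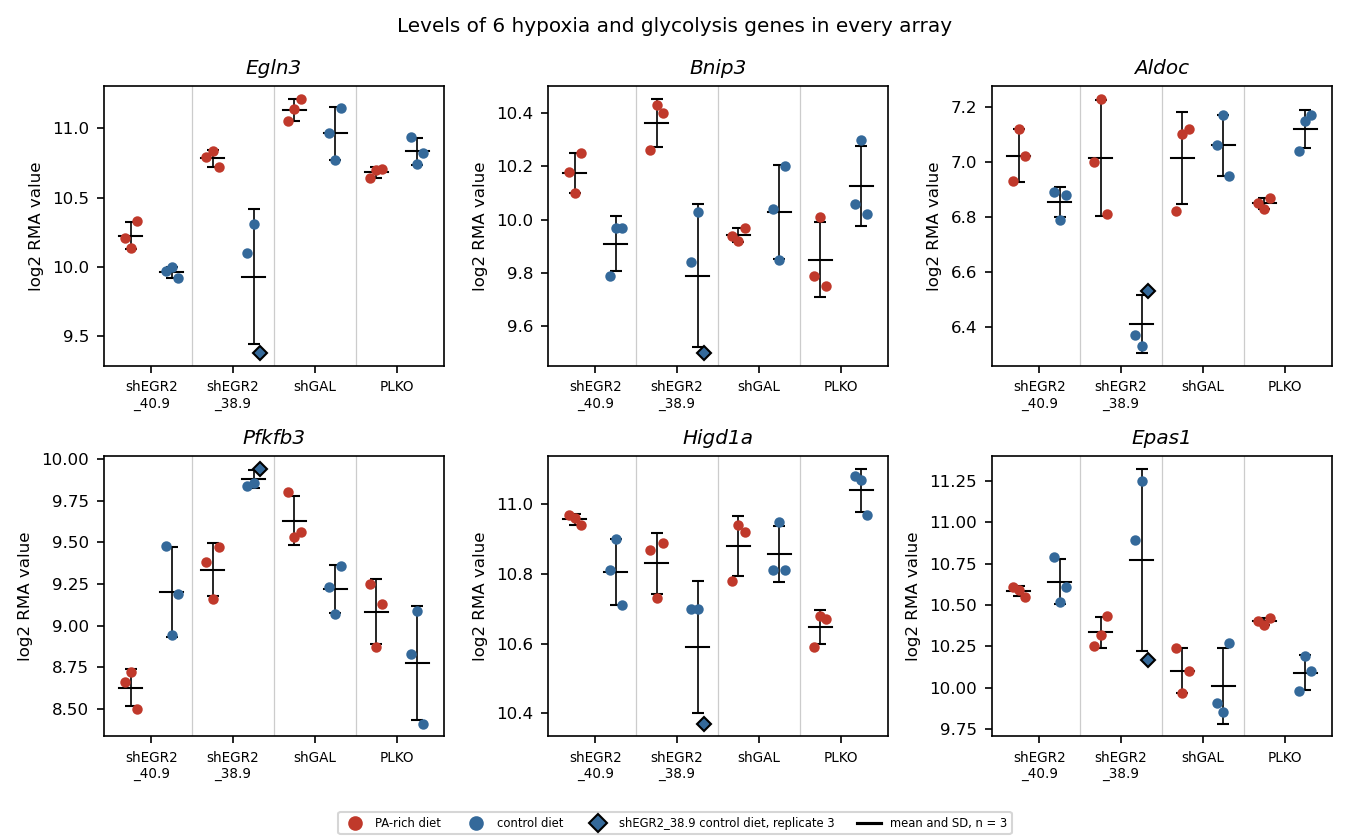
Log2 value of 6 members in each of the 24 arrays, by hairpin (horizontal axis), with the PA-rich diet in red to the left of the control diet in blue. Points are arrays, bars the mean and SD of 3, and the diamond is control-diet replicate 3 of shEGR2_38.9, at 9.38 for Egln3 and 10.17 for Epas1.

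**Figure D3:**
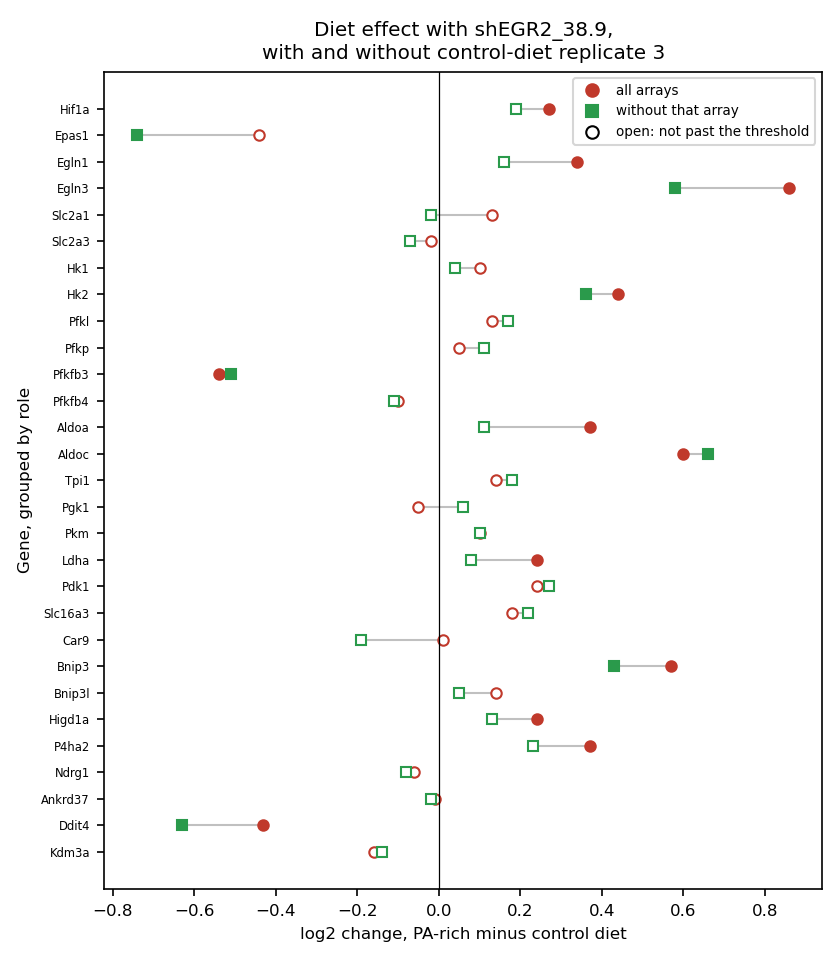
Change with diet under shEGR2_38.9 (horizontal axis, log2, PA-rich minus control) for each member, with all arrays (red circles) and without control-diet replicate 3 (green squares). Filled symbols passed an adjusted p of 0.05: 12 members with the array and 7 without it.

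With shEGR2_40.9 the PA-rich diet raised 4 members and lowered 2, 6 of 29, against 8.95% of all genes (3.73% up and 5.22% down). The median change was 0.09, against 0.03 over all genes. Slc16a3, Egln1, Pfkl and Tpi1 rose, and the 2 regulators Pfkfb3 and Pfkfb4 fell. In the same comparison 7 of the 8 endothelial markers fell (median -1.33) and 2 of 4 macrophage markers fell (median -0.38), and their part in these changes was not tested. Leaving out 1 array changed the count to 1 without control replicate 1 or PA-rich replicate 3, to 2 without control replicate 2 or PA-rich replicate 2, and to 3 without PA-rich replicate 1. Leaving out shEGR2_38.9 control-diet replicate 3, which enters through the shared estimate of spread, made it 10, with 6 up and 4 down, against 13% of all genes. The added members were Egln3 and Ldha up and Ndrg1 and Ddit4 down.

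Slc16a3, the lactate exporter, had 8.02, 7.90 and 8.34 on the PA-rich diet, against 7.75, 7.39 and 7.62 on the control diet with shEGR2_40.9. Every PA-rich array was above every control array, and the gene rose by 0.50 (SE 0.13, adjusted p = 0.0116). The call ended without shEGR2_40.9 control-diet replicate 2 (adjusted p = 0.0769) or shEGR2_40.9 PA-rich-diet replicate 3 (adjusted p = 0.101). Pfkfb3 had 8.66, 8.72 and 8.50 on the PA-rich diet, against 9.48, 8.94 and 9.19 on the control diet. The groups did not overlap, as with the other EGR2 hairpin, and Pfkfb3 fell by 0.58 (SE 0.15, adjusted p = 0.0124), a call that ended without shEGR2_40.9 control-diet replicate 1 (adjusted p = 0.0927) or shEGR2_40.9 PA-rich-diet replicate 3 (adjusted p = 0.0711). Pfkfb4, an isoform of the same bifunctional enzyme, had 7.72, 7.78 and 7.86 on the PA-rich diet, against 8.18, 8.21 and 7.98 on the control diet. It fell by 0.33 (SE 0.09, adjusted p = 0.0274) with no overlap, and the call ended without shEGR2_40.9 control-diet replicates 1 (adjusted p = 0.0972) or 2 (adjusted p = 0.108) or shEGR2_40.9 PA-rich-diet replicates 1 (adjusted p = 0.116) or 2 (adjusted p = 0.0808). Pfkl, a phosphofructokinase subunit, had 11.23, 11.23 and 11.13 on the PA-rich diet, against 10.85, 10.91 and 11.02 on the control diet. Its change of 0.27 (SE 0.08, adjusted p = 0.0494) lay just past the threshold and was lost without any 1 of 19 arrays, all except PLKO control-diet replicate 1, shEGR2_40.9 control-diet replicate 3, shEGR2_38.9 control-diet replicate 3 and shGAL control-diet replicates 2 and 3. Tpi1, triose phosphate isomerase, had 11.08, 11.21 and 11.10 on the PA-rich diet, against 10.84, 10.93 and 10.93 on the control diet. It rose by 0.23 (SE 0.06, adjusted p = 0.0273) with no overlap, and the call ended without shEGR2_40.9 control-diet replicates 1 (adjusted p = 0.106) or 3 (adjusted p = 0.0511) or shEGR2_40.9 PA-rich-diet replicates 2 (adjusted p = 0.145) or 3 (adjusted p = 0.0603).

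Egln1 with shEGR2_40.9 had 10.57, 10.48 and 10.62 on the PA-rich diet, against 10.24, 10.22 and 10.22 on the control diet. The control arrays were almost equal and lay below all PA-rich arrays. Egln1 rose by 0.33 (SE 0.10, adjusted p = 0.0415), and the call ended without shEGR2_40.9 control-diet replicates 1 (adjusted p = 0.0855), 2 (adjusted p = 0.0979) or 3 (adjusted p = 0.0996), shEGR2_40.9 PA-rich-diet replicates 1 (adjusted p = 0.115), 2 (adjusted p = 0.0608) or 3 (adjusted p = 0.153), shEGR2_38.9 PA-rich-diet replicate 3 (adjusted p = 0.0508) or shGAL PA-rich-diet replicate 1 (adjusted p = 0.0506). Egln3 had 10.21, 10.14 and 10.33 on the PA-rich diet, against 9.97, 10.00 and 9.92 on the control diet. The PA-rich arrays were the higher ones here as well, but the change of 0.26 (SE 0.14, adjusted p = 0.33) did not pass, and it was 0.26 (adjusted p = 0.0423) without shEGR2_38.9 control-diet replicate 3. Hif1a had 11.87, 11.88 and 11.92 on the PA-rich diet, against 11.85, 11.92 and 11.94 on the control diet, and Epas1 had 10.61, 10.59 and 10.55 on the PA-rich diet, against 10.79, 10.52 and 10.61 on the control diet. Both overlapped between diets, with changes of -0.02 (adjusted p = 0.941) and -0.06 (adjusted p = 0.896).

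Under shGAL and PLKO few members passed the diet test, which does not show that the others did not respond. With shGAL limma called 0 of 29, against 1.94% of all genes (1.33% up and 0.608% down), and 7 members had an unadjusted p under 0.05. The median change was -0.05, against -0.01 over all genes. The count was 1 without shEGR2_38.9 control-diet replicate 3, the fall of Egln1 at -0.26 (adjusted p = 0.0257), against 4.46% of all genes. Egln1 had 10.09, 10.06 and 10.16 on the PA-rich diet, against 10.25, 10.37 and 10.47 on the control diet, without overlap, and a change of -0.26 (adjusted p = 0.192) over all arrays. Egln3 had 11.05, 11.14 and 11.21 on the PA-rich diet, against 10.97, 10.77 and 11.15 on the control diet, which overlapped, with 0.17 (adjusted p = 0.612). Pfkfb3 had 9.80, 9.53 and 9.56 on the PA-rich diet, against 9.23, 9.07 and 9.36 on the control diet, higher in every PA-rich array, with 0.41 (adjusted p = 0.155). Hif1a had 12.03, 11.95 and 12.17 on the PA-rich diet, against 11.94, 11.90 and 12.10 on the control diet. Epas1 had 10.24, 9.97 and 10.10 on the PA-rich diet, against 9.91, 9.85 and 10.27 on the control diet. Neither separated the diets, with changes of 0.07 (adjusted p = 0.728) and 0.09 (adjusted p = 0.83).

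With PLKO 1 member of 29 was called, against 1.18% of all genes (0.371% up and 0.811% down), and 6 members had an unadjusted limma p under 0.05. The median change was -0.02, against 0.01 over all genes. Higd1a had 10.59, 10.68 and 10.67 on the PA-rich diet, against 11.08, 11.07 and 10.97 on the control diet. Every PA-rich array lay well below the lowest control array, and Higd1a fell by 0.39 (SE 0.08, adjusted p = 0.0175). The call ended without PLKO control-diet replicates 1 (adjusted p = 0.0675) or 2 (adjusted p = 0.0682) or PLKO PA-rich-diet replicates 1 (adjusted p = 0.106) or 3 (adjusted p = 0.0501). Egln3 had 10.64, 10.70 and 10.71 on the PA-rich diet, against 10.94, 10.74 and 10.82 on the control diet, and Bnip3 had 9.79, 10.01 and 9.75 on the PA-rich diet, against 10.06, 10.30 and 10.02 on the control diet. Both were lower in all PA-rich arrays than in any control array, with changes of -0.15 (adjusted p = 0.777) and -0.28 (adjusted p = 0.324) that did not pass. Egln1 had 10.40, 10.53 and 10.43 on the PA-rich diet, against 10.51, 10.50 and 10.67 on the control diet, Hif1a had 11.95, 12.05 and 11.96 on the PA-rich diet, against 11.91, 11.97 and 11.93 on the control diet, and Epas1 had 10.40, 10.38 and 10.42 on the PA-rich diet, against 9.98, 10.19 and 10.10 on the control diet. Of these 3, Epas1 alone kept the diets apart, with a change of 0.31 (adjusted p = 0.521).

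**Figure D4:**
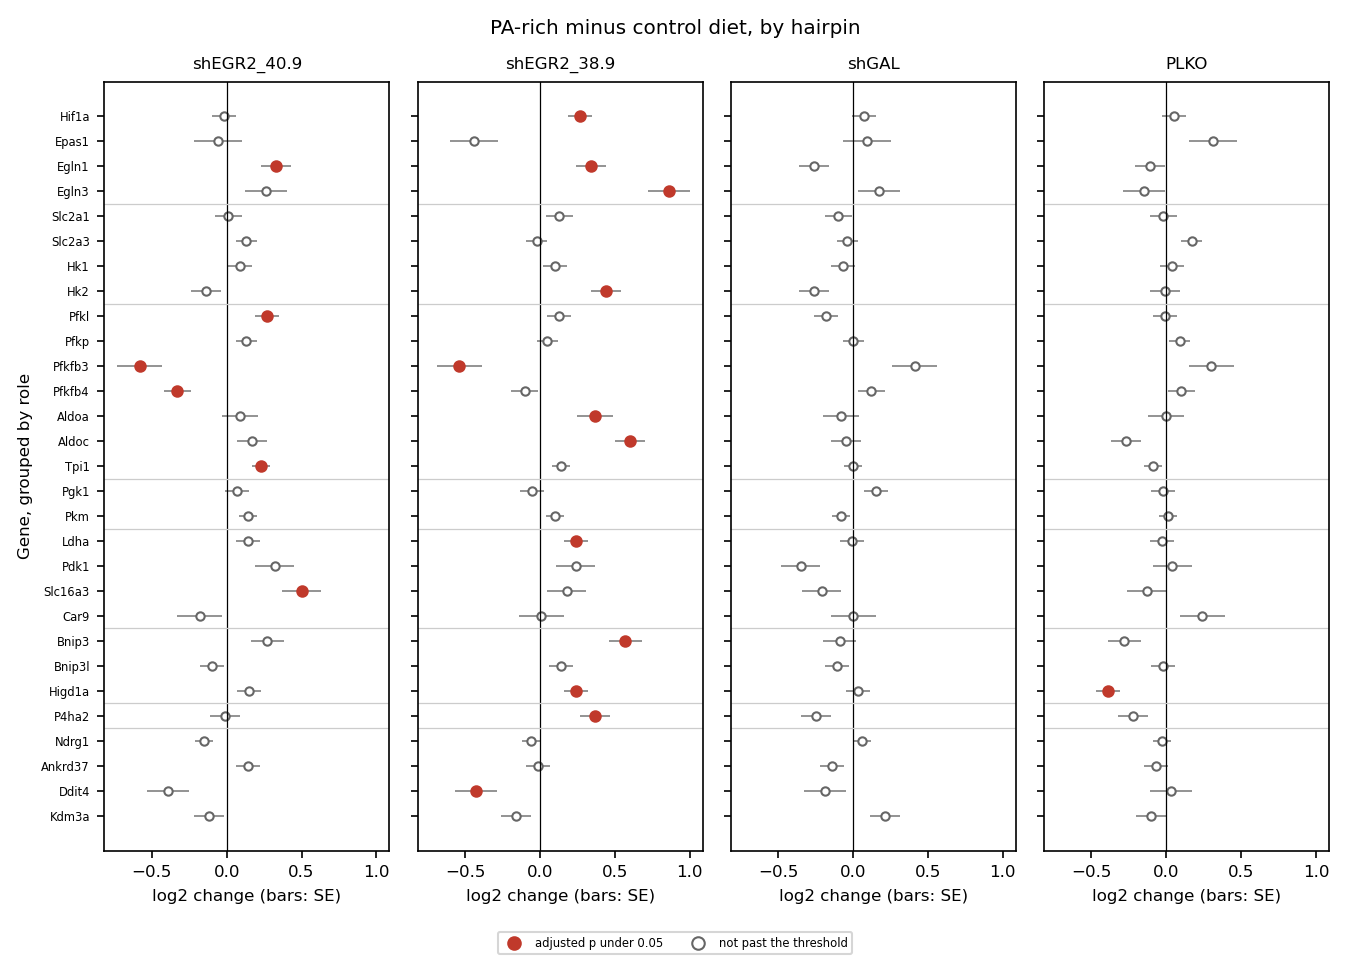
Change with diet (PA-rich minus control, log2, bars SE) of the 29 members, grouped by role, in tumours with shEGR2_40.9, shEGR2_38.9, shGAL and PLKO. Red points passed an adjusted p of 0.05 with all arrays in the fit: 6, 12, 0 and 1 members.

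Whether the diet effect itself depended on the EGR2 hairpins was tested as a difference of differences, the mean diet effect of both EGR2 hairpins minus that of PLKO. Of 29 members 6 were higher and 1 lower in this difference, 7 in all, against 9.74% of all genes (5.18% up and 4.57% down). The median was 0.11, against 0.04. Higd1a differed by 0.58 (SE 0.10, adjusted p = 0.000574), Bnip3 by 0.70 (SE 0.14, adjusted p = 0.00194) and Aldoc by 0.66 (SE 0.12, adjusted p = 0.000849). For all 3, every pair of same-number arrays was higher on the PA-rich diet with either EGR2 hairpin and lower with PLKO. Egln3 differed by 0.71 (SE 0.18, adjusted p = 0.0108) and Pfkfb3 by -0.87 (SE 0.18, adjusted p = 0.00257). Pfkfb3 fell in all 6 pairs of the EGR2 hairpins, while the PLKO pairs had 0.42, -0.22 and 0.72. These 5 differences passed under every alternative tried. Egln1 differed by 0.44 (SE 0.12, adjusted p = 0.024), which ended without PLKO control-diet replicate 3 (adjusted p = 0.0848) or PLKO PA-rich-diet replicates 1 (adjusted p = 0.0735) or 3 (adjusted p = 0.0563). Tpi1 differed by 0.28 (SE 0.08, adjusted p = 0.0251), which ended with quantile normalization run again (adjusted p = 0.0657) and without PLKO control-diet replicates 1 (adjusted p = 0.0587) or 2 (adjusted p = 0.0566) or PLKO PA-rich-diet replicates 1 (adjusted p = 0.079) or 3 (adjusted p = 0.0822). When shEGR2_38.9 control-diet replicate 3 was left out the count was 11, with 8 up and 3 down, against 13.5% of all genes, and it held Higd1a at 0.53 (adjusted p = 0.000138), Bnip3 at 0.63 (adjusted p = 0.00109), Aldoc at 0.69 (adjusted p = 0.000388), Egln3 at 0.57 (adjusted p = 0.000755) and Pfkfb3 at -0.85 (adjusted p = 0.00371). The 4 added members were Slc16a3 and P4ha2 up and Epas1 and Ddit4 down. For 1 EGR2 hairpin at a time minus PLKO, 4 members passed with shEGR2_40.9, 3 up and 1 down, against 4.16% of all genes (1.8% up and 2.36% down), and 9 with shEGR2_38.9, 7 up and 2 down, against 13.4% (7.84% up and 5.52% down). The count for shEGR2_40.9 was 1 without shEGR2_40.9 PA-rich-diet replicate 3 or PLKO PA-rich-diet replicate 1, 2 without shEGR2_40.9 control-diet replicates 1 or 2, shEGR2_40.9 PA-rich-diet replicate 1, shGAL control-diet replicate 1, shGAL PA-rich-diet replicates 1 or 2, PLKO control-diet replicates 2 or 3 or PLKO PA-rich-diet replicate 3 and 8 without shEGR2_38.9 control-diet replicate 3. For shEGR2_38.9 the count without its control-diet replicate 3 was again 9, 6 up and 3 down, against 14.1% of all genes. In the joint difference 7 of 8 endothelial markers (median -1.15) and 3 of 4 macrophage markers (median -0.55) also fell. So did 1 of 5 pericyte and smooth muscle markers (median -0.52) and 1 of 2 erythrocyte markers (median -0.46). Of the neuronal markers 1 of 2 rose, and of the skeletal muscle markers 1 of 4. The part of these cell types in the members' values was not tested.

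The diet effects of the 2 EGR2 hairpins differed from each other for 1 member of 29, against 5.57% of all genes (3.77% up and 1.81% down). Hk2 with shEGR2_40.9 had 11.03, 11.01 and 11.03 on the PA-rich diet, against 11.05, 11.24 and 11.22 on the control diet, while with shEGR2_38.9 it rose as given above, and the difference of the diet effects (shEGR2_38.9 minus shEGR2_40.9) was 0.58 (SE 0.14, adjusted p = 0.0164). The arrays of shEGR2_40.9 were lower on the PA-rich diet in every pair and those of shEGR2_38.9 higher in every pair. For Egln3 the difference of 0.60 (SE 0.20, adjusted p = 0.0934) did not pass, which does not show that the hairpins acted alike. The count was 3 without shEGR2_38.9 control-diet replicate 3, against 6.35% of all genes: Hk2 at 0.50 (adjusted p = 0.0377), Aldoc at 0.49 (adjusted p = 0.0361) and Epas1 at -0.68 (adjusted p = 0.0105). It was also 3 without control-diet replicate 2 of that hairpin, and 2 without its PA-rich replicate 3 or shGAL PA-rich replicate 1. Between shGAL and PLKO, limma called the diet effect different for 0 of 29 members, against 1.33% of all genes (1.01% up and 0.321% down), with 2 members at an unadjusted p under 0.05. That count was 1 without the same array, Higd1a at 0.42 (adjusted p = 0.0167), against 2.9% of all genes.

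On the control diet the EGR2 hairpins differed from PLKO in 10 of 29 members, 4 higher and 6 lower, against 25.2% of all genes (10.8% up and 14.5% down). The median change was -0.07, against -0.06 over all genes. Egln3 and Egln1, Aldoc, Higd1a, Bnip3 and Ankrd37 were lower, and Pfkfb3, Epas1, Ddit4 and Pfkfb4 were higher. With shEGR2_38.9 control-diet replicate 3 left out the count was also 10, with 5 up and 5 down, against 28.1% of all genes: Car9 joined and Bnip3 left. Beside these changes all 8 endothelial markers rose (median 1.64), 3 of 4 macrophage markers rose (median 0.54) and 3 of 5 pericyte and smooth muscle markers rose (median 0.62), and their part was not tested. The comparison shares its EGR2 control arrays with the diet effects above, so that the values of one are not independent of those of the other.

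Egln3 on the control diet was 9.92 to 10.00 with shEGR2_40.9 and 9.38 to 10.31 with shEGR2_38.9, against 10.74 to 10.94 with PLKO. No array of either EGR2 hairpin reached PLKO, and Egln3 was lower by 0.89 (SE 0.12, adjusted p = 1.44e-05). Without shEGR2_38.9 control-diet replicate 3 the change in Egln3 was -0.75 (adjusted p = 2.34e-07). In the 1 scan batch shared by each pair of groups, the difference was -0.96 for shEGR2_40.9 and -0.43 for shEGR2_38.9. Egln1 was 10.22 to 10.24 and 9.79 to 10.34 with the same hairpins, against 10.50 to 10.67 with PLKO, again without overlap, and the change was -0.38 (SE 0.09, adjusted p = 0.00255). It was -0.29 (adjusted p = 0.000801) without shEGR2_38.9 control-diet replicate 3. Aldoc was 6.79 to 6.89 and 6.33 to 6.53, against 7.04 to 7.17 with PLKO. It was lower by 0.49 (SE 0.08, adjusted p = 0.000145), with a change for shEGR2_40.9 alone of -0.27 and for shEGR2_38.9 alone of -0.71. The difference between the hairpins was not tested on this diet alone. Higd1a was 10.71 to 10.90 and 10.37 to 10.70, against 10.97 to 11.08, and was lower by 0.34 (SE 0.07, adjusted p = 0.00113). Its change was -0.29 (adjusted p = 0.000834) without shEGR2_38.9 control-diet replicate 3. Hif1a had a change of -0.10 (adjusted p = 0.305), short of the threshold.

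Pfkfb3 on the control diet was 8.94 to 9.48 with shEGR2_40.9 and 9.84 to 9.94 with shEGR2_38.9, against 8.41 to 9.09 with PLKO. The arrays of shEGR2_38.9 lay clear of PLKO, whereas those of shEGR2_40.9 overlapped it, and the mean of both hairpins was higher by 0.76 (SE 0.13, adjusted p = 9.76e-05). Epas1 was 10.52 to 10.79 and 10.17 to 11.25, against 9.98 to 10.19. Control replicate 3 of shEGR2_38.9 lay within the PLKO range, and the rise was 0.61 (SE 0.14, adjusted p = 0.00282) with it and 0.76 (adjusted p = 3.93e-06) without it. Ddit4 was 8.02 to 8.32 and 8.47 to 9.19, against 8.01 to 8.22, so shEGR2_38.9 alone stood above PLKO. The mean change was 0.41 (SE 0.12, adjusted p = 0.02), and the call ended without PLKO control-diet replicates 2 (adjusted p = 0.0722) or 3 (adjusted p = 0.0939). Pfkfb4 was 7.98 to 8.21 and 7.81 to 7.92, against 7.55 to 7.92 with PLKO. The arrays of shEGR2_40.9 lay above PLKO and those of shEGR2_38.9 overlapped it. The change of 0.31 (SE 0.08, adjusted p = 0.00791) ended without PLKO control-diet replicates 2 (adjusted p = 0.0748) or 3 (adjusted p = 0.0662).

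Bnip3 on the control diet was 9.79 to 9.97 with shEGR2_40.9 and 9.50 to 10.03 with shEGR2_38.9, against 10.02 to 10.30 with PLKO. All arrays of shEGR2_40.9 lay below PLKO, and 1 of shEGR2_38.9 reached it. The change was -0.28 (SE 0.10, adjusted p = 0.0398). The call ended with the scan batch as a block (adjusted p = 0.0935) and without shEGR2_40.9 control-diet replicate 1 (adjusted p = 0.0782), shEGR2_38.9 control-diet replicate 3 (adjusted p = 0.0749) or PLKO control-diet replicates 1 (adjusted p = 0.0582) or 2 (adjusted p = 0.233). Ankrd37, a hypoxia-induced ankyrin repeat gene, was 7.19 to 7.26 and 7.27 to 7.42, against 7.30 to 7.59. Only the arrays of shEGR2_40.9 lay below all of PLKO, and the change of -0.21 (SE 0.07, adjusted p = 0.0243) ended without PLKO control-diet replicates 2 (adjusted p = 0.13) or 3 (adjusted p = 0.169). The count of 10 fell to 6 without PLKO control-diet replicate 2. Each EGR2 hairpin alone against PLKO gave 6 members for shEGR2_40.9, 3 up and 3 down, against 12.1% of all genes (7.19% up and 4.94% down), and 10 for shEGR2_38.9, 3 up and 7 down, against 30.4% (11.2% up and 19.1% down). The count for shEGR2_40.9 was 2 without PLKO control-diet replicate 3 and 3 without shEGR2_40.9 control-diet replicate 1. For shEGR2_38.9 it was 7 without its control-diet replicate 3, 3 up and 4 down, against 27.1% of all genes. Hk2 (adjusted p = 0.111), Aldoa (adjusted p = 0.413) and Bnip3 (adjusted p = 0.183) then lost their calls. With the scan batch as a block, Egln1 (adjusted p = 0.217) and Ankrd37 (adjusted p = 0.0531) lost their calls for shEGR2_40.9 and Aldoa (adjusted p = 0.118) lost its call for shEGR2_38.9. The Aldoa change was -0.33 (adjusted p = 0.0492), or -0.07 without shEGR2_38.9 control-diet replicate 3. Its call held in 2 of 29 settings, and another Aldoa probe set had the opposite sign. Car9, a carbonic anhydrase of the cell surface, passed for shEGR2_40.9 alone, with 7.00, 7.41 and 7.33 against 6.68, 6.70 and 6.48 with PLKO and a change of 0.62 (SE 0.15, adjusted p = 0.00897), a call lost without PLKO control-diet replicate 3 (adjusted p = 0.053).

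**Figure D5:**
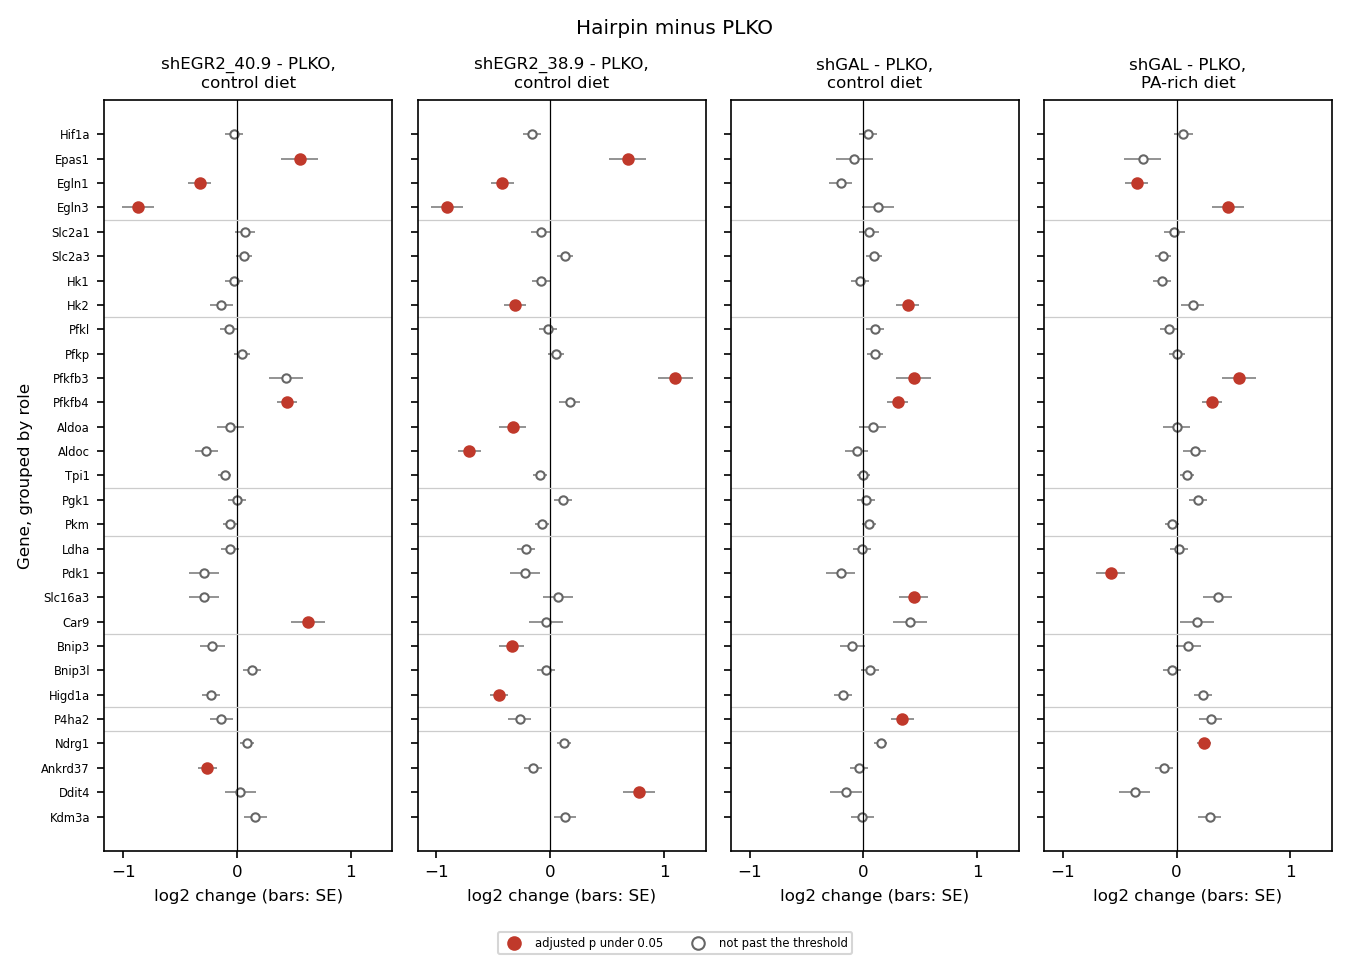
Hairpin minus PLKO (log2, bars SE) for the 29 members, grouped by role: shEGR2_40.9, shEGR2_38.9 and shGAL on the control diet and shGAL on the PA-rich diet. Red points passed an adjusted p of 0.05 with all arrays in the fit: 6, 10, 5 and 6 members.

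On the PA-rich diet the EGR2 hairpins differed from PLKO in 1 of 29 members, against 1.11% of all genes (0.794% up and 0.321% down), with a median change of 0.05 against 0.00. Bnip3 had 10.18, 10.10 and 10.25 with shEGR2_40.9 and 10.26, 10.43 and 10.40 with shEGR2_38.9, against 9.79, 10.01 and 9.75 with PLKO. All 6 EGR2 arrays were higher than the 3 PLKO arrays, and Bnip3 was higher by 0.42 (SE 0.10, adjusted p = 0.0337). The call ended without shEGR2_40.9 PA-rich-diet replicates 1 (adjusted p = 0.0545) or 3 (adjusted p = 0.083), shEGR2_38.9 PA-rich-diet replicates 2 (adjusted p = 0.0771) or 3 (adjusted p = 0.0718) or PLKO PA-rich-diet replicates 1 (adjusted p = 0.171) or 3 (adjusted p = 0.218), and the count was 2 without shEGR2_38.9 PA-rich replicate 1. Higd1a was 10.94 to 10.97 and 10.73 to 10.89, against 10.59 to 10.68 with PLKO, also without overlap, and its change of 0.24 (adjusted p = 0.11) became 0.24 (adjusted p = 0.022) without shEGR2_38.9 control-diet replicate 3. The count was then 2, against 2.17% of all genes. Each hairpin alone gave 1 member, Higd1a with shEGR2_40.9, against 4.02% of all genes (2.53% up and 1.49% down), and Bnip3 with shEGR2_38.9, against 0.625% (0.49% up and 0.135% down), and both calls ended with the scan batch as a block (adjusted p = 0.0827 for Higd1a and 0.059 for Bnip3). The Higd1a call was also lost without any 1 of the 6 arrays compared, and the Bnip3 call without any 1 of 5 of them, all except PLKO PA-rich-diet replicate 2. Egln3 was 10.14 to 10.33 with shEGR2_40.9 and 10.72 to 10.84 with shEGR2_38.9, against 10.64 to 10.71 with PLKO. The arrays of shEGR2_40.9 lay below PLKO and those of shEGR2_38.9 above it, with changes of -0.46 (adjusted p = 0.0812) and 0.10 (adjusted p = 0.904), so that the mean of both, -0.18 (adjusted p = 0.631), joins opposite signs. The other oxygen sensors had mean changes of 0.06 (adjusted p = 0.85) for Egln1, -0.02 (adjusted p = 0.963) for Hif1a and 0.06 (adjusted p = 0.936) for Epas1.

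With shGAL on the control diet 5 of 29 members were higher than with PLKO and 0 lower, against 17% of all genes (7.15% up and 9.84% down). The share of members called in either direction, 17.2%, was near that of all genes. The median change was 0.05, against -0.01. Hk2 had 11.74, 11.75 and 11.60 with shGAL, against 10.97, 11.43 and 11.53 with PLKO. The groups did not overlap, PLKO replicate 1 was the lowest, and Hk2 was higher by 0.39 (SE 0.10, adjusted p = 0.0104), a call that ended without PLKO control-diet replicate 1 (adjusted p = 0.0783). In the 1 scan batch that shGAL shares with PLKO the difference for Hk2 was 0.08. The call kept an adjusted p of 0.0482 with the scan batch as a block. Slc16a3 had 8.27, 8.53 and 8.14 with shGAL, against 7.84, 7.85 and 7.93 with PLKO. It was higher in every shGAL array, by 0.44 (SE 0.13, adjusted p = 0.0174), and the call ended without shGAL control-diet replicate 2 (adjusted p = 0.108) or PLKO control-diet replicates 1 (adjusted p = 0.0506) or 2 (adjusted p = 0.0541). P4ha2 had 8.84, 8.86 and 8.70 with shGAL, against 8.53, 8.37 and 8.48 with PLKO. It too kept the groups apart, and its call at 0.34 (SE 0.10, adjusted p = 0.0258) was lost with the scan batch as a block (adjusted p = 0.0577) and without shGAL control-diet replicates 1 (adjusted p = 0.0816) or 2 (adjusted p = 0.0864) or PLKO control-diet replicates 2 (adjusted p = 0.106) or 3 (adjusted p = 0.057).

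Pfkfb3 had 9.23, 9.07 and 9.36 with shGAL on the control diet, against 8.83, 9.09 and 8.41 with PLKO, and Pfkfb4 had 8.00, 8.07 and 7.87, against 7.92, 7.55 and 7.58. Both overlapped by 1 array. The changes were 0.44 (SE 0.15, adjusted p = 0.0384) for Pfkfb3 and 0.30 (SE 0.09, adjusted p = 0.0323) for Pfkfb4. The Pfkfb3 call ended without shGAL control-diet replicates 1 (adjusted p = 0.0913) or 3 (adjusted p = 0.125) or PLKO control-diet replicates 1 (adjusted p = 0.0602) or 3 (adjusted p = 0.253). The Pfkfb4 call ended with the scan batch as a block (adjusted p = 0.106) and without shGAL control-diet replicates 1 (adjusted p = 0.0878) or 2 (adjusted p = 0.123) or PLKO control-diet replicates 2 (adjusted p = 0.156) or 3 (adjusted p = 0.14). With that block 3 of the 29 members were called, in place of 5. In the shared scan batch the difference was 0.21 for Slc16a3, 0.22 for P4ha2, 0.95 for Pfkfb3 and 0.29 for Pfkfb4. Without shEGR2_38.9 control-diet replicate 3, which changes the shared estimate of spread, 9 were called, 7 up and 2 down, against 23.6% of all genes, and the additions were Car9 and Ndrg1 up and Egln1 and Higd1a down. The count was 2 without PLKO control-diet replicate 1, 2 or 3, or without shGAL control-diet replicate 1. The oxygen sensors had changes of -0.20 (adjusted p = 0.194) for Egln1, 0.13 (adjusted p = 0.594) for Egln3, 0.04 (adjusted p = 0.759) for Hif1a and -0.08 (adjusted p = 0.807) for Epas1.

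On the PA-rich diet shGAL differed from PLKO in 6 of 29 members, 4 higher and 2 lower, against 12.4% of all genes (7.6% up and 4.77% down), with a median of 0.06 against -0.04. Pdk1, which shuts pyruvate out of the mitochondrial cycle by inhibiting pyruvate dehydrogenase, had 8.15, 8.04 and 8.49 with shGAL, against 8.88, 8.79 and 8.76 with PLKO. All shGAL arrays were lower, and Pdk1 was lower by 0.58 (SE 0.13, adjusted p = 0.00458). Ndrg1, a hypoxia target needed to maintain peripheral myelin, had 12.44, 12.51 and 12.41 with shGAL, against 12.20, 12.20 and 12.25 with PLKO. The groups were narrow and apart, and Ndrg1 was higher by 0.24 (SE 0.06, adjusted p = 0.00694). These 2 calls passed under every alternative tried. In the 1 scan batch that shGAL shares with PLKO the difference was -0.28 for Pdk1 and 0.16 for Ndrg1.

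Egln3 had 11.05, 11.14 and 11.21 with shGAL on the PA-rich diet, against 10.64, 10.70 and 10.71 with PLKO, and Egln1 had 10.09, 10.06 and 10.16, against 10.40, 10.53 and 10.43. The 2 prolyl hydroxylases thus moved in opposite directions, each without overlap. Egln3 was higher by 0.45 (SE 0.14, adjusted p = 0.0412), and the call ended without shEGR2_40.9 PA-rich-diet replicate 1 (adjusted p = 0.05), shGAL PA-rich-diet replicates 1 (adjusted p = 0.0632), 2 (adjusted p = 0.1) or 3 (adjusted p = 0.131) or PLKO PA-rich-diet replicates 1 (adjusted p = 0.116), 2 (adjusted p = 0.091) or 3 (adjusted p = 0.0892). Egln1 was lower by 0.35 (SE 0.10, adjusted p = 0.0233), and the call ended with the scan batch as a block (adjusted p = 0.0746) and without shGAL PA-rich-diet replicates 1 (adjusted p = 0.0662) or 2 (adjusted p = 0.0828) or PLKO PA-rich-diet replicates 2 (adjusted p = 0.0986) or 3 (adjusted p = 0.0548). Pfkfb3 had 9.80, 9.53 and 9.56, against 9.25, 8.87 and 9.13 with PLKO, and Pfkfb4 had 8.11, 7.95 and 8.22, against 7.71, 7.78 and 7.85. Every shGAL array exceeded every PLKO array for both. Pfkfb3 was higher by 0.55 (SE 0.15, adjusted p = 0.0144), a call that ended without shGAL PA-rich-diet replicate 1 (adjusted p = 0.0805) or PLKO PA-rich-diet replicate 2 (adjusted p = 0.0934). Pfkfb4 was higher by 0.31 (SE 0.09, adjusted p = 0.0303), and its call was lost with the block (adjusted p = 0.098) and without shGAL PA-rich-diet replicates 1 (adjusted p = 0.0817) or 3 (adjusted p = 0.15) or PLKO PA-rich-diet replicates 1 (adjusted p = 0.115) or 2 (adjusted p = 0.0787). Hif1a and Epas1 had changes of 0.06 (adjusted p = 0.673) and -0.30 (adjusted p = 0.271). Without shEGR2_38.9 control-diet replicate 3 the count was 10, with 7 up and 3 down, against 17.7% of all genes, and it was 2 without PLKO PA-rich replicate 2 or shGAL PA-rich replicate 1.

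Other genes of the pathway came from a list of 51, of which 42 were tested, 5 were dim and 4 had no probe set naming them alone. With shEGR2_38.9 the PA-rich diet raised 8 and lowered 4 of the 42, against 22.1% of all genes (13.8% up and 8.3% down). With shEGR2_40.9 it raised 5 and lowered 3, against 8.95% of all genes (3.73% up and 5.22% down). Leaving out shEGR2_38.9 control-diet replicate 3 gave 9 up and 4 down with shEGR2_38.9, against 19.1% of all genes, and 8 up and 3 down with shEGR2_40.9, against 13%. Vegfa, the growth factor for blood vessels, rose with shEGR2_38.9 by 0.42 (SE 0.11, adjusted p = 0.00558). Gys1, muscle-type glycogen synthase, rose by 0.38 (SE 0.10, adjusted p = 0.0118) with shEGR2_40.9 and by 0.46 (SE 0.10, adjusted p = 0.00122) with shEGR2_38.9. Plod2, a lysyl hydroxylase of collagen, rose by 0.60 (SE 0.12, adjusted p = 0.00147) and 0.33 (SE 0.12, adjusted p = 0.0409) in the same order. Its relative Plod1 went the other way, with -0.69 (SE 0.10, adjusted p = 4.63e-05) and -1.16 (SE 0.10, adjusted p = 1.69e-08). Angptl4, a secreted inhibitor of lipoprotein lipase that fatty acids also induce, had -0.89 (SE 0.13, adjusted p = 5.96e-05) and -0.96 (SE 0.13, adjusted p = 7.16e-06). With shGAL 0 were higher and 1 was lower, Vegfa at -0.47 (SE 0.11, adjusted p = 0.0232), against 1.94% of all genes, and 1 was higher and 1 lower without that array, against 4.46%.

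On the control diet the EGR2 hairpins had 4 of these 42 genes higher and 9 lower than PLKO, against 25.2% of all genes (10.8% up and 14.5% down), or 3 higher and 8 lower without shEGR2_38.9 control-diet replicate 3, against 28.1%. Plod1 was higher by 1.34 (SE 0.08, adjusted p = 2.46e-10) and Angptl4 by 1.15 (SE 0.11, adjusted p = 8.6e-08), the largest differences among the 42. Vhl, whose protein directs the destruction of the factors, was lower by 0.22 (SE 0.07, adjusted p = 0.0332). Gys1 was lower by 0.34 (SE 0.08, adjusted p = 0.00389) and Fam162a, a hypoxia-induced mitochondrial gene, by 0.25 (SE 0.07, adjusted p = 0.0092). Egln2, the remaining prolyl hydroxylase, was higher by 0.19 (SE 0.07, adjusted p = 0.046). On the PA-rich diet 2 were higher and 0 lower, against 1.11% of all genes (0.794% up and 0.321% down). In the difference of diet effects between the EGR2 hairpins and PLKO, 5 were higher and 2 lower, against 9.74% of all genes (5.18% up and 4.57% down). Without the same array 8 were higher and 3 lower in that difference, against 13.5%.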

How the data were processed

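Mouse RNA of the neural fraction was amplified and hybridised to perfect-match Affymetrix mouse arrays, 24 in all. The deposited values are on the log2 scale, and per the submitters' processing notes the authors made them with RMA and affy, that is with background correction, quantile normalization and summary per probe set. The version is not given in the sources used here. Of 45141 probe sets, 28898 name 1 gene, 551 several and 15692 none, and the brightest over all arrays stood for each of 17097 genes. Genes under the 40th percentile of mean level (6.27) were set aside as dim, which left 11844. limma 3.58.1 in R 4.3.3 fitted 1 model of 8 group means to all arrays (lmFit and eBayes, 16 residual degrees of freedom), and Benjamini-Hochberg adjustment ran over the 11844 genes with a threshold of 0.05. All adjusted p-values come from this test, which is two-sided.

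The members and lists were chosen with earlier results of these data known. Values by array were given for up to 6 members with the largest called change in each direction of a comparison and always for Hif1a, Epas1, Egln1 and Egln3. In the comparisons of hairpins whose arrays had already been given, ranges stand in their place. Values by array or ranges outside this rule, chosen after they were seen, are those of Ldha and Higd1a in the diet effect with shEGR2_38.9, Bnip3 with PLKO, Pfkfb3 with shGAL, and Higd1a for the EGR2 hairpins on the PA-rich diet. Other pathway genes were named only where called. Alternatives left dim genes in, ran quantile normalization again, averaged a gene's probe sets, fitted only the arrays compared, added scan batch to the model as a block, and left out each array in turn. Per the labels, the replicate numbers of a hairpin go with 1 scan batch each on both diets, out of 6 batches, so the block pairs the diets. The correlation of deviations within the 12 pairs ran from -0.03 to 0.24 and passed 0.1 in 7. In simulated data for the diet effect with shEGR2_38.9 over 11844 genes, 80 of 100 genes changed by 0.5 and 99 of 100 changed by 1 were called, and 14 of the 193 calls were unchanged genes. The simulated noise was normal and independent between genes and arrays, with the same spread in every group for a given gene. It held no array apart and no scan batches, so these rates may not hold for the real arrays. Promoter sequences are from RefSeq.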

Additional observations from a re-analysis of the deposited data

Results flagged for a closer look

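Differences in the diet effect between hairpins that passed the test of the difference itself are collected here, each as a log2 difference over 3 arrays a group. For both EGR2 hairpins together minus PLKO they were Higd1a 0.58 (adjusted p = 0.000574), Bnip3 0.70 (adjusted p = 0.00194), Aldoc 0.66 (adjusted p = 0.000849), Egln3 0.71 (adjusted p = 0.0108), Egln1 0.44 (adjusted p = 0.024), Tpi1 0.28 (adjusted p = 0.0251) and Pfkfb3 -0.87 (adjusted p = 0.00257). For shEGR2_40.9 alone minus PLKO, 4 of 29 members passed, against 4.16% of all genes: Slc16a3 0.63 (adjusted p = 0.0445), Higd1a 0.54 (adjusted p = 0.00946), Tpi1 0.32 (adjusted p = 0.0467) and Pfkfb3 -0.88 (adjusted p = 0.0154). Of these, Tpi1 lost its call with the scan batch as a replicate block (adjusted p = 0.0607) and in 19 of 29 settings in all, Slc16a3 in 16, Pfkfb3 in 3 and Higd1a in 0. For shEGR2_38.9 alone minus PLKO, 9 passed, against 13.4%: Egln3 1.01 (adjusted p = 0.00167), Aldoc 0.87 (adjusted p = 0.000133), Bnip3 0.86 (adjusted p = 0.000808), Higd1a 0.63 (adjusted p = 0.000715), P4ha2 0.58 (adjusted p = 0.00964), Hk2 0.45 (adjusted p = 0.0378), Egln1 0.44 (adjusted p = 0.0402), Epas1 -0.75 (adjusted p = 0.0348) and Pfkfb3 -0.85 (adjusted p = 0.0073). Of these, Epas1 lost its call in 10 of 29 settings, Hk2 in 10 and Egln1 in 9, and the other 6 in 0. Between the EGR2 hairpins it was Hk2 alone, 0.58 (adjusted p = 0.0164).

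Without shEGR2_38.9 control-diet replicate 3, the differences of shEGR2_38.9 minus PLKO were Egln3 0.73 (adjusted p = 0.000329), Aldoc 0.93 (adjusted p = 9.56e-05), Bnip3 0.71 (adjusted p = 0.00146), Higd1a 0.52 (adjusted p = 0.000725), P4ha2 0.45 (adjusted p = 0.0205), Hk2 0.38 (adjusted p = 0.0876), Egln1 0.27 (adjusted p = 0.0695), Epas1 -1.05 (adjusted p = 0.000103) and Pfkfb3 -0.82 (adjusted p = 0.0159). The difference for Epas1 was larger without the array and that for Egln3 smaller. What sets the array apart was not tested. All comparisons with PLKO share its 6 arrays.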

How the results depend on the processing

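Of 80 called member changes, 31 passed in all 29 alternative settings and 0 reversed sign. They included, with shEGR2_38.9, the diet changes of Egln3, Hk2, Aldoc and Bnip3; for the EGR2 hairpins against PLKO on the control diet, Epas1, Egln1, Egln3, Pfkfb3, Aldoc and Higd1a. Leaving out 1 array at a time, the members called ranged from 0 to 1 for the diet effect with PLKO, 1 to 10 with shEGR2_40.9, 6 to 12 with shEGR2_38.9 and 0 to 1 with shGAL. For the EGR2 hairpins minus PLKO they ranged from 6 to 12 on the control diet and 0 to 2 on the PA-rich diet, and for shGAL minus PLKO from 2 to 9 and 2 to 10. For differences in diet effect they ranged from 5 to 11 (EGR2 hairpins minus PLKO), 0 to 1 (shGAL minus PLKO) and 1 to 3 (shEGR2_38.9 minus shEGR2_40.9). With only the arrays compared in the fit, which leaves fewer degrees of freedom, the counts were 5 in place of 12 for the diet effect with shEGR2_38.9, 6 in place of 10 for the EGR2 hairpins minus PLKO on the control diet and 2 in place of 1 on the PA-rich diet, and for shGAL minus PLKO 2 in place of 5 on the control diet and 12 in place of 6 on the PA-rich diet. That fit ended the diet calls of Hif1a, Egln1, Aldoa, Ldha, Higd1a, P4ha2 and Ddit4 with shEGR2_38.9 and of Tpi1 with shEGR2_40.9. On the control diet it ended Pfkfb4, Bnip3, Ankrd37 and Ddit4 for the EGR2 hairpins minus PLKO. For shGAL minus PLKO on that diet it ended Hk2, Pfkfb3 and Pfkfb4. Such losses for 1 EGR2 hairpin alone are not listed. With the scan batch as a replicate block, which pairs the diets, shGAL minus PLKO on the control diet had 3 in place of 5, and beside the calls named in the report and above the block ended no other member's call. With the mean of all probe sets of a gene, the counts were 1 in place of 0 for the diet effect with shGAL, 8 in place of 5 for shGAL minus PLKO on the control diet, 1 in place of 0 for shGAL minus PLKO in diet effect and 2 in place of 1 for shEGR2_38.9 minus shEGR2_40.9. The cause was not tested for these. Leaving dim genes in ended the diet calls of Pfkl with shEGR2_40.9 and Ldha with shEGR2_38.9. It also ended the calls of Pfkfb3 on the control diet and Egln3 on the PA-rich diet for shGAL minus PLKO. Quantile normalization run again ended the diet calls of Pfkl with shEGR2_40.9 and of Ldha and Higd1a with shEGR2_38.9, beside that of Tpi1 given above. Over all genes, the diet effect with shEGR2_38.9 had 1640 up and 983 down, against 1385 and 1096 with quantile normalization run again and 634 and 661 with only the arrays compared. With quantile normalization run again, the diet effect with shEGR2_40.9 had 557 up and 577 down, against 442 and 618, and that with shGAL 121 and 94, against 158 and 72. The 3 arrays of a group are called technical replicates, and their number limits what could be called.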

Other observations

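Between shGAL and PLKO on the control diet, 4 of the 42 other pathway genes were higher and 4 lower, against 17% of all genes (7.15% up and 9.84% down), a share near that of all genes. Adm, a vessel-dilating peptide, was higher by 0.55 (SE 0.09, adjusted p = 0.000193), Angptl4 by 0.51 (SE 0.13, adjusted p = 0.0078) and Vegfa by 0.41 (SE 0.11, adjusted p = 0.00959). Slc2a4, the insulin-responsive glucose transporter, was lower by 0.52 (SE 0.08, adjusted p = 0.000205) and Rora by 0.42 (SE 0.08, adjusted p = 0.00138). On the PA-rich diet 2 were higher and 4 lower, against 12.4% of all genes (7.6% up and 4.77% down), again near it, with Cited2, a competitor of the factors for their coactivators, higher by 0.58 (SE 0.11, adjusted p = 0.00143), and Slc2a4 and Rora lower by 0.52 (SE 0.08, adjusted p = 0.000199) and 0.41 (SE 0.08, adjusted p = 0.00217). Without shEGR2_38.9 control-diet replicate 3, which is in neither group but enters the shared spread, the counts were 5 higher and 8 lower on the control diet, against 23.6%, and 3 higher and 6 lower on the PA-rich diet, against 17.7%. The 8 endothelial markers had median changes of 0.08 on the PA-rich diet and -0.18 on the control diet.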
